A study of Caenorhabditis elegans with 2 samples.

Results

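The 10 genes described here belong to the dosage compensation machinery of Caenorhabditis elegans or are sex determination genes tied to it: sdc-1, sdc-2, sdc-3, dpy-21, dpy-26, dpy-27, dpy-28, dpy-30, xol-1 and her-1. They were taken by name from the 19973 protein-coding genes of the annotation, and each name matched exactly 1 gene. The list was drawn up with earlier results of these data known, and xol-1 was included because a strong peak on X lies near it, so the set was in part chosen by the signal of that peak, which is described and not tested. Of the 10 genes, 3 lie on X (sdc-1, sdc-2 and xol-1) and 7 on autosomes.

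The data are chromatin immunoprecipitation with sequencing of eGFP-tagged MEP-1, a zinc finger protein that works with chromatin repressors, in whole worms at the first larval stage (L1). All animals came from strain OP102, which carries the mutation unc-119(tm4063) on III and the insertion wgIs102 directed at mep-1. There were 2 biological replicates of 1 group and no untreated or untagged group. The sources used here give neither the promoter that drives the tagged protein nor the state of the untagged mep-1 gene. The animals are labelled as mixed sex and whole animals were used, so XX and XO animals and different cell types cannot be told apart. The share of XO animals is not given. The age in hours is given as unknown. No control library was analysed here, although one entered the authors' processing, per the deposited file lists.

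In this worm hermaphrodites have a pair of X chromosomes and males have a single X. XOL-1 acts early in the embryo as the switch that makes an XO animal male. Where XOL-1 is low, SDC-2 with SDC-1 and SDC-3 brings a condensin-like complex, built on DPY-27 with DPY-26 and DPY-28, to both X chromosomes and lowers their transcription. The same SDC proteins repress her-1, which encodes a secreted male-promoting ligand. Sex is set in the embryo, before the stage sampled.

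Each list gives peaks with a summit and the authors' signal value, whose scale differs between lists, so only ranks within a list (1 for the highest signal) are set side by side. The optimal list held 4904 peaks, the pooled list 30000, and the lists of replicates 1 and 2 held 30000 and 29149. The optimal peaks were the 4904 highest-signal pooled peaks, with signal from 45.3 to 919 and a median of 82.5. "Top" below means ranked within the first 4904 of a replicate's own list. Promoter windows reach 1000 bp upstream and 200 bp into the gene from each of its annotated 5' ends. No read counts are given, so the depth is unknown and no counting interval can be set. All positions refer to the ce11 build (WBcel235) and count from 1.

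The sequences around the summits that the results turn on are shown 5' to 3' along the strand of the named gene, read from the RefSeq assembly of WBcel235. Each runs 50 bp to each side of the summit, except at the peak upstream of xol-1, where it runs 100 bp to each side. The summits are those of the optimal list, except at sdc-2 and sdc-3, where they are those of replicate 1. Capitals mark CGCAGGG, the core of the motif through which the dosage compensation complex is recruited to X, and the words GACGCA as well as ACGCAG and also CGTCTC, which were more frequent at optimal summits than across the genome. Each was sought on both strands. The first and second of these words overlap, and the reverse complement of the third can overlap them too, so their counts are not separate.
xol-1, upstream peak, chrX:8036338-8036538, + strand: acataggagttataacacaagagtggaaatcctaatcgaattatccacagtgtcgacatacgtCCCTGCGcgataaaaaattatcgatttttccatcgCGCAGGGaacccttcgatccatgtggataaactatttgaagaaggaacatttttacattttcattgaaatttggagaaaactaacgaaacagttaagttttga
sdc-1 promoter, chrX:16275396-16275496, + strand: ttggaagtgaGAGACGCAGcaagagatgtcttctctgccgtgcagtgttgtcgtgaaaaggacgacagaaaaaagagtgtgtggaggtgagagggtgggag
sdc-2 promoter, chrX:11522240-11522340, + strand: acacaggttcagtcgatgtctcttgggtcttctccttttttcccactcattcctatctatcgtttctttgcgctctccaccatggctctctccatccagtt
sdc-3 promoter, chrV:15048273-15048373, - strand: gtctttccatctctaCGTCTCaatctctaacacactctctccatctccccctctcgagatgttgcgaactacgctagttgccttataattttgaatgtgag
dpy-27 promoter, chrIII:3820285-3820385, - strand: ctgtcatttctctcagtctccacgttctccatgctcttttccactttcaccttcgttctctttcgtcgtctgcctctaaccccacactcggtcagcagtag
dpy-30 promoter, chrV:12191093-12191193, + strand: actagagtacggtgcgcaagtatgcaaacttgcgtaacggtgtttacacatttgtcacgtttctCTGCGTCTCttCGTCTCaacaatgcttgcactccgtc
her-1, downstream peak, chrV:9704523-9704623, + strand: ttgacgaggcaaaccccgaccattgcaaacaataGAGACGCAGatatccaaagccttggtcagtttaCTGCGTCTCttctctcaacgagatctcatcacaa

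MEP-1 peaks of the optimal list lay at the promoters of sdc-1, dpy-27 and dpy-30, while xol-1 had its strongest peak far upstream. At sdc-2 and sdc-3 a promoter peak was called in each replicate but in neither the pooled nor the optimal list. At dpy-26 a promoter peak was high in replicate 2 alone, and at dpy-21, dpy-28 and xol-1 the promoters held summits below the optimal list. At her-1 no list held a summit in a promoter window. An optimal summit in a promoter window was thus found for 3 of 10 members, against 17.5% of all protein-coding genes, 15.3% of those on X and 17.9% of those on autosomes. In each of the 3 the member's own 5' end was the nearest, which held for 13.2% of all genes. With so few members, 1 gene more or less moves this share a great deal, and no test was made.

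**Figure D1:**
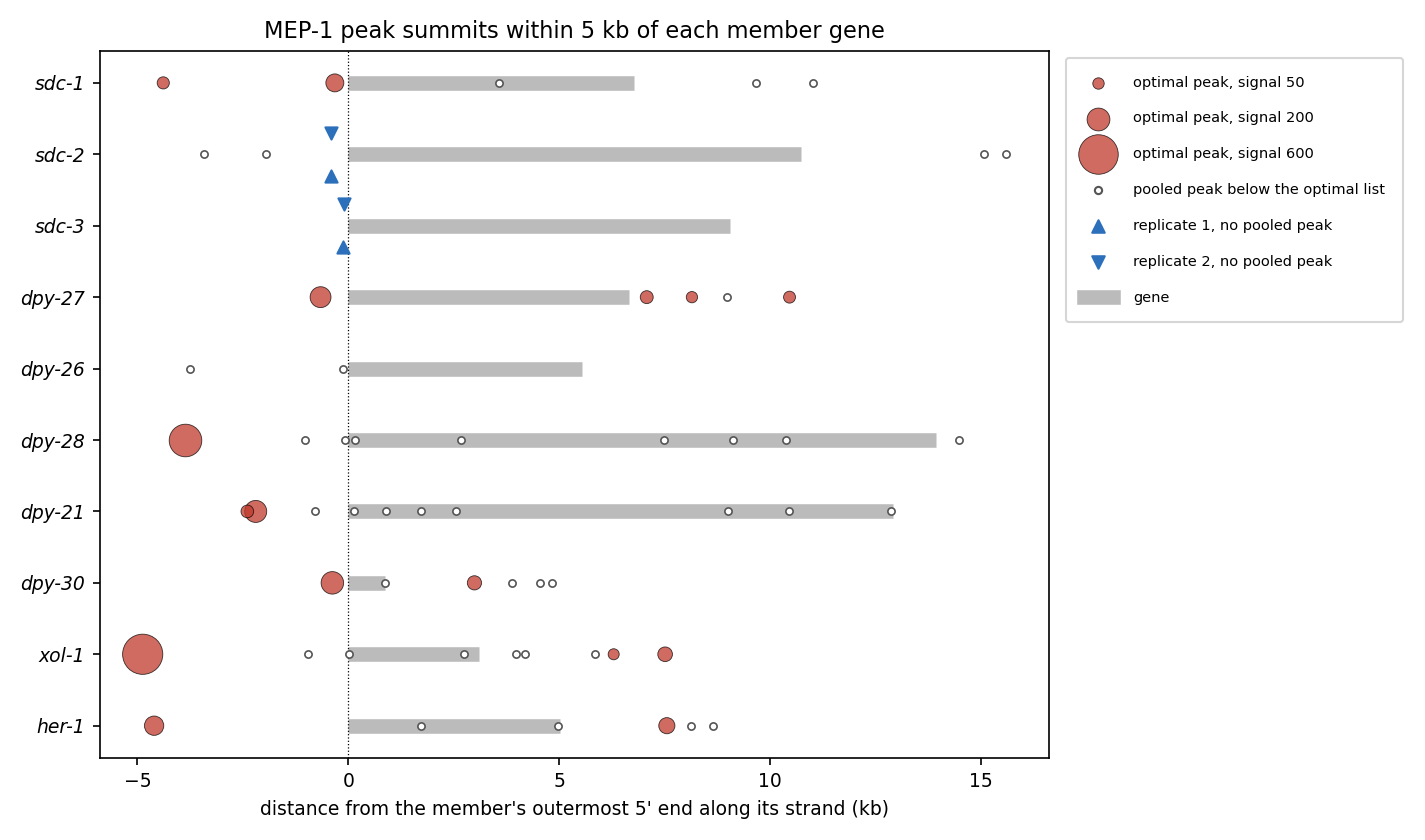
Summits within 5 kb of each gene (rows), placed by distance in kb from the gene's outermost 5' end along its strand (x axis), with the gene as a grey bar. Red circles are optimal peaks with area by signal, open circles are pooled peaks ranked below the optimal list, and blue triangles are the replicate peaks at sdc-2 and sdc-3. Only sdc-1, dpy-27 and dpy-30 have a red circle just upstream of the 5' end, and the largest circle, signal 620.5, lies 4875 bp upstream of xol-1.

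The switch gene xol-1 (WBGene00006962, X 8041313 to 8044409, + strand) was the member with the strongest summit within 5 kb. The peak at X 8036241 to 8036783 had a signal of 620.5 in the optimal list and ranked 13. In replicate 1 it had a signal of 440.2 and ranked 12, and in replicate 2 it had 184 and ranked 14. The ranks thus differed little between the replicates. Among the 901 optimal peaks on X it ranked 6. The peak was 543 bp wide, against a median of 350 bp, and 14 optimal peaks were at least as wide.

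The summit of this peak, X 8036438, lay between protein-coding genes, 4875 bp upstream of the nearer xol-1 5' end. That places it just inside the limit of 5 kb used to choose summits. No protein-coding 5' end was nearer, and the next was that of C34D10.1 at 6959 bp. Genes for short RNAs were much closer. A tRNA gene (WBGene00022939) at X 8036685 to 8036757 lay inside the peak, 247 bp from the summit, together with the ncRNA gene C18A11.13, and another tRNA gene began 1069 bp from the summit. The peak can therefore not be given to xol-1 alone, and its position near tRNA genes was not tested as a source of the signal.

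At the xol-1 5' end itself the signal was weak. A pooled summit lay 2 bp downstream of a 5' end with a signal of 40.5 and rank 5534, below the last optimal rank. Replicate 1 had a summit at the same base with rank 5533, and replicate 2 had one 70 bp upstream with rank 6631. In none of the 3 lists was this summit within the first 4904. Downstream of the gene 2 further optimal peaks, with ranks 2451 and 4692, lay beyond the end of C18A11.4, whose 5' end was nearer to each of them.

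**Figure D2:**
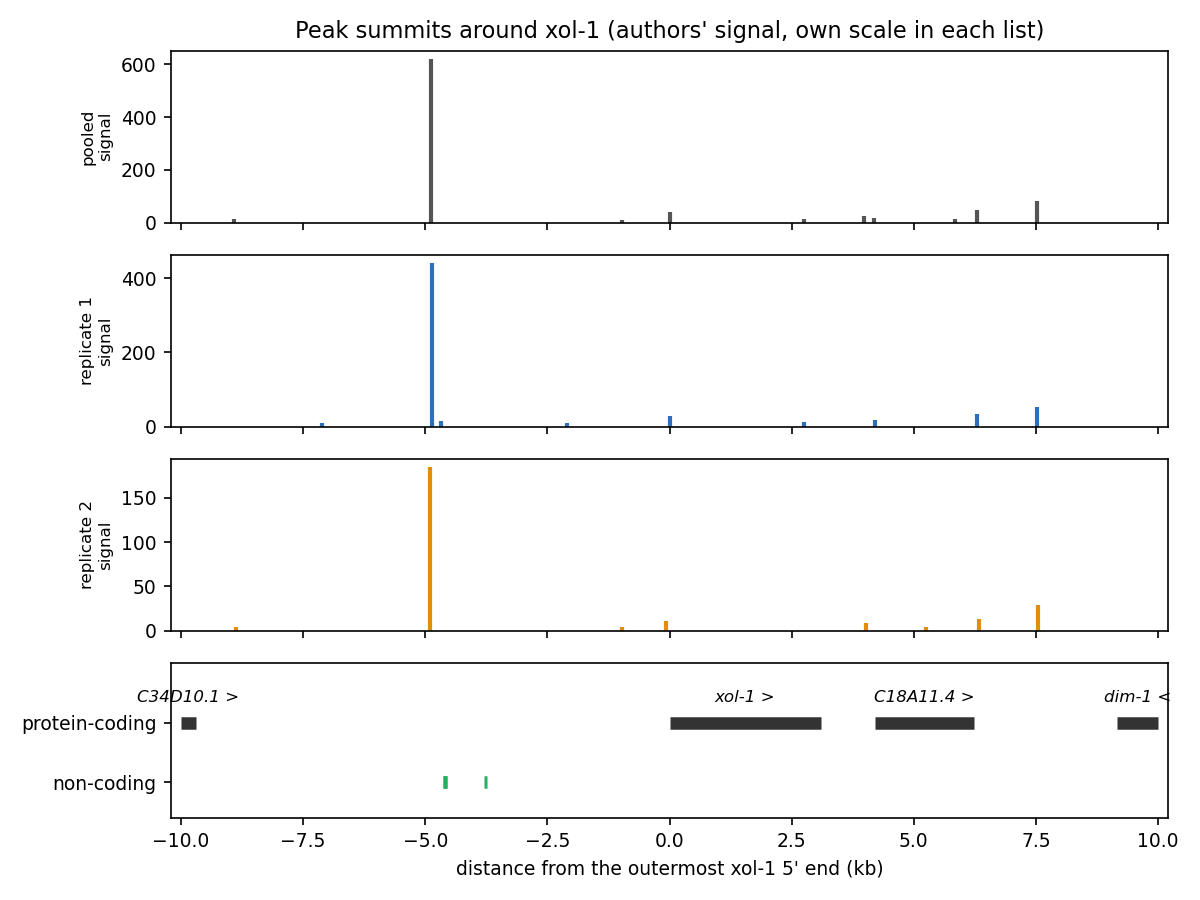
Signal of every summit (y axis, the authors' values on each list's own scale) against distance in kb from the outermost xol-1 5' end (x axis) in the pooled list and in replicates 1 and 2, with genes below. The summit 4875 bp upstream stands far above all others in each list, beside a short non-coding gene, and the summit at the 5' end has a pooled signal of 40.5.

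The upstream peak held the X recruitment core CGCAGGG at 2 places in opposite orientation, starting 2 bp and 37 bp before the summit, as the capitals in its sequence show. Within 50 bp of the summit this core was present at 51 of all 4904 optimal summits (1.04%), at 2.44% of those on X and at 0.724% of those on autosomes. It stood in 0.18% of stretches of the same length just upstream of a gene and in 0.152% of stretches of that length across the genome. Only 2 optimal summits, both on X, held it more than 1 time. It was at 3.07% of the 489 optimal summits on X outside promoter windows, and at 10 of the 20 with the highest signal among them. None of the other 15 optimal summits within 5 kb of a member did. A match to these letters is a description and does not show that the complex is bound there. GC content within 50 bp of the summit was 41.6%, against a mean of 44.6% over all optimal summits. The mean was 33.2% in the stretches just upstream of genes and 35.4% in those across the genome. The core is itself rich in G and C and the sets were not matched for GC content, so how far composition accounts for the shares was not tested.

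The 3 sdc genes encode the proteins that mark X for dosage compensation. SDC-1 and SDC-3 are zinc finger proteins, and SDC-2 is the hermaphrodite-specific protein that recruits the others. All 3 had a summit upstream of the 5' end in both replicates, between 99 and 417 bp away, but only sdc-1 had one in the pooled and optimal lists.

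At sdc-1 (WBGene00004745, X 16275763 to 16282534, + strand) the promoter peak at X 16275430 to 16275539 had an optimal signal of 124 and ranked 1347, with its summit 317 bp upstream. In replicate 1 the signal was 88.2 and the rank 1303, and in replicate 2 they were 34.9 and 1737. The summits of the replicates lay within 15 bp of the optimal one. The only other optimal peak near the gene ranked 3830 and lay 4387 bp upstream. Among protein-coding genes its nearest 5' end was that of ifa-3, an intermediate filament gene, at 1307 bp. The 50 bp to each side of its summit also overlap a tRNA gene (WBGene00014388) and the ncRNA gene F52E10.7, so this peak too lay at genes for short RNAs. The genes whose own promoter peak had the most similar ranks over the 2 replicates were npp-23, a nuclear pore gene (ranks 1313 and 1724), and rnp-2, which encodes a spliceosome protein (1286 and 1695), out of 2608 compared.

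At sdc-2 (WBGene00004746, X 11522707 to 11533450, + strand) replicate 1 had a promoter peak at X 11522148 to 11522298, with a signal of 103 and rank 995. Replicate 2 had one at X 11522139 to 11522468, with a signal of 23.7 and rank 2951. Their summits lay 417 and 403 bp upstream of the 5' end, so the calls fell at the same place. No pooled peak overlapped either of them, and the nearest pooled summit was 1538 bp from that of replicate 1. The strongest pooled summit near the gene ranked 6836 and lay 224 bp upstream of hpo-34.

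At sdc-3 (WBGene00004747, V 15039148 to 15048207, - strand) the promoter peak of replicate 1 had a signal of 37.5 and rank 4160, and that of replicate 2 had 19.3 and rank 3783. The summits lay 116 and 99 bp upstream. The pooled list held no summit within 5 kb of the gene, and its nearest to the replicate 1 summit was 11442 bp away. This member was the only one of the 10 without any pooled summit within 5 kb, where 79.2% of all protein-coding genes had one.

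Peaks that both replicates call and the pooled list lacks were rare. Of 3828 top peaks of replicate 1 that overlapped a top peak of replicate 2, 26 overlapped no pooled peak (0.679%), and 1 of those 26 ranked above the sdc-2 peak in replicate 1. By gene, 2998 of 19973 had a top summit of both replicates in a promoter window. Of these, 24 had no pooled summit there (0.120% of all genes), and sdc-2 and sdc-3 were 2 of the 24. This rule was not among the planned results. That it takes in sdc-2 and sdc-3 follows from their calls given above and is not a separate result. Why the pooled list lacks these peaks was not tested. A top promoter summit of both replicates was found at 5 of 10 members (sdc-1, sdc-2, sdc-3, dpy-27 and dpy-30), against 15.0% of all genes. From replicate 1 alone the count of members with a top promoter summit was 5 (17.4% of all genes), and from replicate 2 alone it was 6, with dpy-26 added (18.0% of all genes), in place of the 3 of the optimal list.

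**Figure D3:**
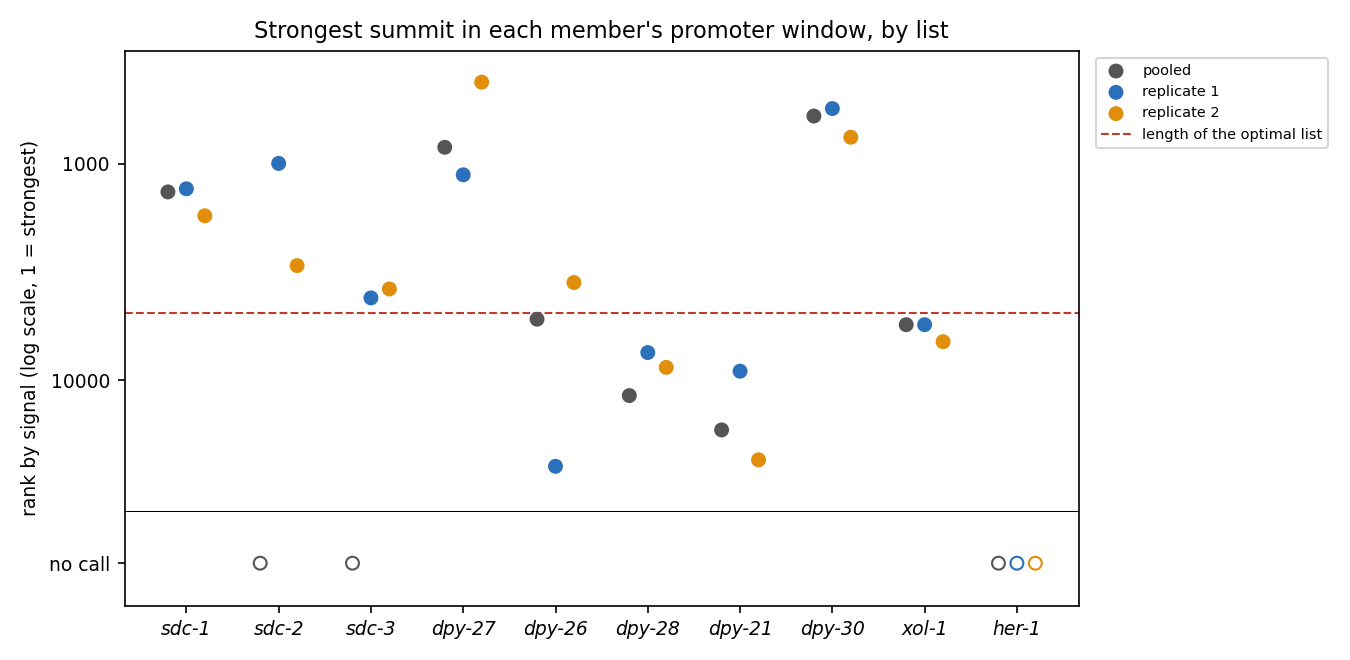
Rank by signal (y axis, log scale, 1 at the top) of the strongest summit in each gene's promoter window in the pooled list (grey), replicate 1 (blue) and replicate 2 (orange). Open circles mark a list without a summit in the window, and the dashed line is the length of the optimal list, 4904. At sdc-2 and sdc-3 both replicates lie above the line with no pooled call, and at dpy-26 replicate 1 ranks 24971 while replicate 2 ranks 3534.

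Of the 3 members that encode subunits of the condensin-like core, 1 had an optimal promoter peak, where 17.5% of all genes had one. Other subunits of condensin I and its dosage compensation form, among them mix-1 and capg-1, are not members and are given below. DPY-27 is the SMC protein that is particular to the dosage compensation complex, while DPY-26 and DPY-28 also serve in the condensin of dividing cells. At dpy-27 (WBGene00001086, III 3813018 to 3819679, - strand) the peak at III 3820300 to 3820478 had a signal of 168 and ranked 838. Replicate 1 gave 96.9 and rank 1123, and replicate 2 gave 72.6 and rank 419. The peak was thus high in both, and higher by rank in replicate 2. Its summit lay 656 bp upstream, farther than most, since 9.09% of the 2630 genes with an own promoter peak had it farther upstream. None of the words searched occurs within 50 bp of it. The closest genes by replicate ranks were rsp-1, a splicing factor gene (ranks 1127 and 416), and C33A11.2 (1129 and 432). Beyond the 3' end of dpy-27 lay 3 weaker optimal peaks, with ranks 3317, 4008 and 4494, all nearer to the 5' end of toh-1.

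At dpy-26 (WBGene00001085, IV 12445801 to 12451335, - strand) the replicates differed. Replicate 2 had a summit 138 bp upstream with a signal of 20.5 and rank 3534. Replicate 1 had no summit there, and its only one in the window lay 651 bp upstream with rank 24971. In the pooled list the summit 130 bp upstream had a signal of 42.6 and rank 5220, which made dpy-26 the member just outside the optimal list. The nearest optimal summit was 27809 bp from the gene.

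The dpy-28 gene (WBGene00001087, III 10763131 to 10777076, + strand) lay next to one of the strongest peaks, which belongs to its neighbour by position. The peak at III 10759071 to 10759412 had a signal of 408 and ranked 75, and it ranked 97 in replicate 1 and 47 in replicate 2. Its summit was 46 bp upstream of tasp-1, the gene of a taspase-like protease, in whose promoter window it lay together with that of K01G5.10, and 3870 bp upstream of dpy-28. At dpy-28 itself the strongest pooled promoter summit ranked 11766, and the strongest in replicates 1 and 2 ranked 7443 and 8715, at places more than 1000 bp apart. Near that of replicate 1, which was 1000 bp upstream, replicate 2 had a weaker summit 905 bp upstream with rank 9568. A pooled summit of rank 8210 lay 1031 bp upstream, just outside the window. The gene thus had no promoter summit within the first 4904 of any of the 3 lists.

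The 2 members with roles in histone methylation differed at their promoters. DPY-30 is also a subunit of the COMPASS complexes that methylate histone H3 at lysine 4, and DPY-21 is a demethylase of histone H4 lysine 20. At dpy-30 (WBGene00001088, V 12191519 to 12192385, + strand) the peak at V 12191016 to 12191252 had a signal of 195 and ranked 601, the highest of the members' promoter peaks. Replicate 1 gave 139.8 and rank 555, and replicate 2 gave 56.6 and rank 753. The summit lay 376 bp upstream, and the promoter window overlapped that of the downstream gene rnp-1. The closest genes by replicate ranks were mog-4, an RNA helicase gene (ranks 570 and 755), and ZK1290.5 (567 and 744). Another optimal peak near the gene, with rank 2627, lay 6 bp from the 5' end of ogdh-2.

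At dpy-21 (WBGene00001080, V 17936282 to 17949193, - strand) the nearest strong peak lay on the side of a divergent neighbour. It ranked 670 in the optimal list with a signal of 186, 899 in replicate 1 and 444 in replicate 2. Its summit was 2194 bp upstream of dpy-21 and 562 bp upstream of Y59A8B.24, and a weaker peak with rank 3483 lay beside it. In the dpy-21 promoter window the strongest summits ranked 16954 in the pooled list, 9075 in replicate 1 and 23306 in replicate 2, the last at another place in the window.

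At her-1 (WBGene00001842, V 9697015 to 9702035, + strand), the target of SDC repression, the optimal peaks also belonged to neighbours by position. One with rank 1082 and a signal of 143.5 lay 4604 bp upstream of her-1 and 252 bp upstream of ztf-9, a zinc finger gene. Its summit was in the promoter windows of both ztf-9 and ZK287.7, and the 50 bp to each side overlap an exon of ZK287.11. The other, at V 9704398 to 9704747, ranked 1914 with a signal of 100.2, and ranked 1594 in replicate 1 and 3386 in replicate 2. It lay in an intron of xbx-6, 783 bp upstream of another xbx-6 5' end and 2538 bp past the end of her-1. Within her-1 the pooled summits ranked 20634 and 22163, and replicate 2 had a summit of rank 8703 inside the gene.

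Short sequences near these summits varied. The run GAGACGCAG, which joins the 3 words, stood 40 bp before the summit at sdc-1. Its reverse complement stood 14 bp after the summit at dpy-30. The peak downstream of her-1 held both forms around its summit, as its printed sequence shows. This run was singled out after the windows were seen, and it lay within 50 bp of 9.4% of all optimal summits, 4.77% of those on X, 1.03% of stretches of the same length just upstream of genes and 0.39% of stretches across the genome. Of all optimal summits, 12 held it at 2 or more places. As given above, the stretches upstream of genes and across the genome have a lower mean GC content than the summit windows, and no matching was made. The word CGTCTC was within 50 bp of the replicate 1 summit at sdc-3. None of the words was within 50 bp of the summits at sdc-2 (replicate 1), dpy-26 (pooled) or dpy-27 (optimal). Over the 16 optimal summits within 5 kb of members, GACGCA was at 3 (18.8%, against 15.8% of all optimal summits), ACGCAG at 3 (18.8%, against 16.3%) and CGTCTC at 4 (25%, against 18%).

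Across all members, 7 of 10 had an optimal summit within 5 kb, against 43.6% of all genes. The members are long genes, with a median length of 6.72 kb against 2.03 kb, so the stretch searched was also longer. Of the 16 optimal summits found there, 14 lay between protein-coding genes, 1 in an intron and 1 in an untranslated exon. All 16 had an overlapping peak in both replicates, but only 11 were top peaks in both. For 12 of the 16 another gene had the nearer 5' end, and the others were those at sdc-1, dpy-27 and dpy-30 and the upstream peak at xol-1. With 2 kb on each side in place of 5 kb, 3 of 10 members had an optimal summit, against 29.8% of all genes. The strongest pooled summit within 5 kb had a median rank of 838 over the 9 members with one and of 3992 over the 15810 such genes. The members' median includes the xol-1 peak of rank 13, for which that gene was chosen. It also includes summits nearer to the 5' ends of other genes, at dpy-28 (rank 75), dpy-21 (670), her-1 (1082) and sdc-2 (6836). The longer stretch searched applies here too, and this contrast was not tested. A pooled summit in a promoter window was found for 7 of 10, against 42.4% of all genes. The 7 include weak calls, at dpy-28 (rank 11766, −log10 q 0.22) and dpy-21 (rank 16954, −log10 q 0.11). The strongest pooled promoter summit had a median rank of 5220 over the 7 members and of 7074 over the 8469 genes with one. Both replicates had a promoter summit, whatever its rank, at 9 of 10 members, all but her-1, against 33.0% of all genes. This count takes in weak calls, such as rank 24971 at dpy-26 in replicate 1 and rank 23306 at dpy-21 in replicate 2. Their −log10 q values were 0.06 and 0.08. At dpy-26 the summits of the replicates lay at different places, 651 and 138 bp upstream, so the count does not show the same site in both.

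**Figure D4:**
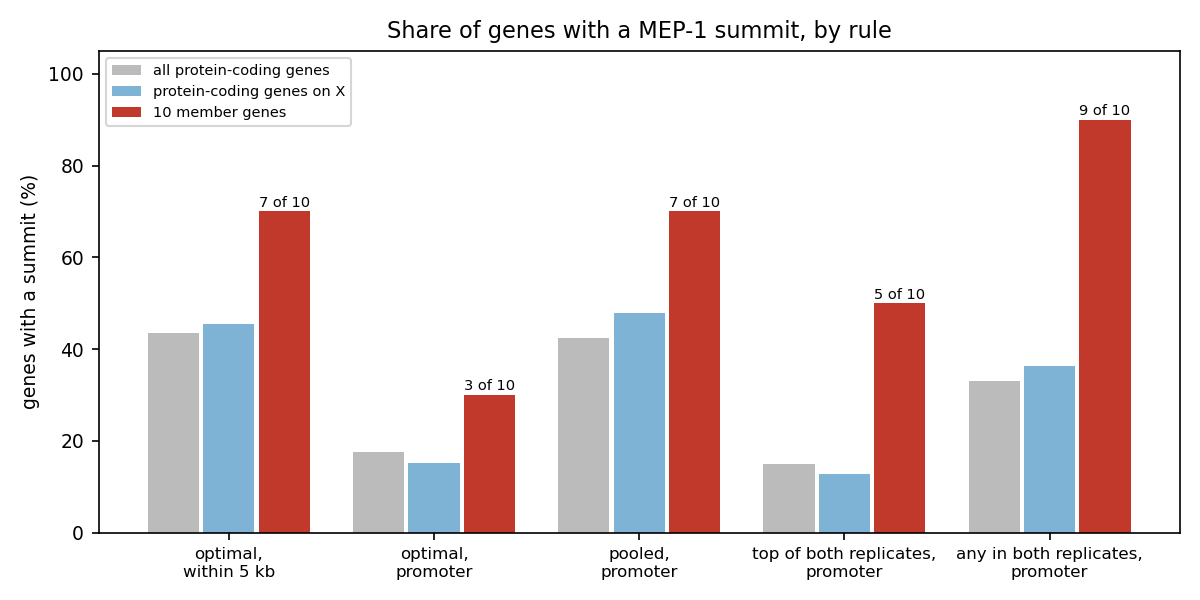
Percent of genes with a summit (y axis, from 0) under 5 rules for all protein-coding genes (grey), those on X (light blue) and the 10 members (red, with counts). The members' bar is at 3 of 10 for optimal promoter peaks, where 17.5% of all genes have one. It is at 9 of 10 for a promoter summit of any rank in both replicates, weak calls included, where 33.0% of all genes have one.

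The other genes of these pathways were looked up from 10 lists of 48 names, of which sex-2 matched no gene. An optimal promoter peak was found for 20 of the 47 genes (42.6%), beside 17.5% of all genes. The lists were chosen with earlier results of these data known. For some of the 20 another gene had the nearer 5' end, as given below. The share was highest in both condensin lists and lowest in the lists of autosomal signal elements and of TRA-1 targets. No test was made over the lists.

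All 3 other subunits of condensin I and its dosage compensation form had an optimal promoter peak: mix-1, the SMC partner of DPY-27 (rank 683, summit 4 bp upstream), smc-4 (rank 1060, nearer to F35G12.7) and capg-1 (rank 3613, with no promoter summit in replicate 1). All 3 condensin II genes did as well, with hcp-6 at rank 194, kle-2 at 2393 and capg-2 at 4565, the last 2 nearer to the 5' end of another gene. Of the 7 other COMPASS genes 5 had one, led by set-16 (rank 37, nearer to drr-2), ash-2 (330) and set-2 (2211), while the pooled summits at wdr-5.1 and cfp-1 ranked 5453 and 13779. Of the H4K20 methyltransferases, set-4, the enzyme that adds the second and further methyl groups, had one at rank 140, and the pooled summit at set-1 ranked 11801.

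The X signal elements, which count X chromosomes by repressing xol-1, had an optimal promoter peak at ceh-39 alone (1 of 3, rank 4765). It was not a top peak of replicate 2, where it ranked 9421. The gene sex-1 had no promoter summit in any list, and fox-1 had a pooled one of rank 10406. Neither autosomal signal element had an optimal one: sea-1 had no promoter summit and sea-2 a pooled one of rank 19709. In the cascade downstream of her-1 there were 4 of 10, led by sel-10 (rank 270), fem-2 (1051) and tra-4 (2867). The receptor gene tra-2, whose product HER-1 binds, had a pooled promoter summit of rank 10528, and tra-3 had none in the pooled list.

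Germline sex determination genes had 1 of 7, at nos-3 (rank 1940), with a pooled summit of rank 22588 at fog-1 and none at fog-2. The targets of TRA-1 and effectors of somatic sex had 0 of 4, where mab-3 had no promoter summit in any list and dmd-3 had one in replicate 2 alone (rank 13236). Genes of the nuclear periphery and chromatin anchoring had 2 of 6, at lem-2 (rank 1764) and emr-1 (1956), with a pooled summit of rank 5466 at cec-4 and none at met-2.

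**Figure D5:**
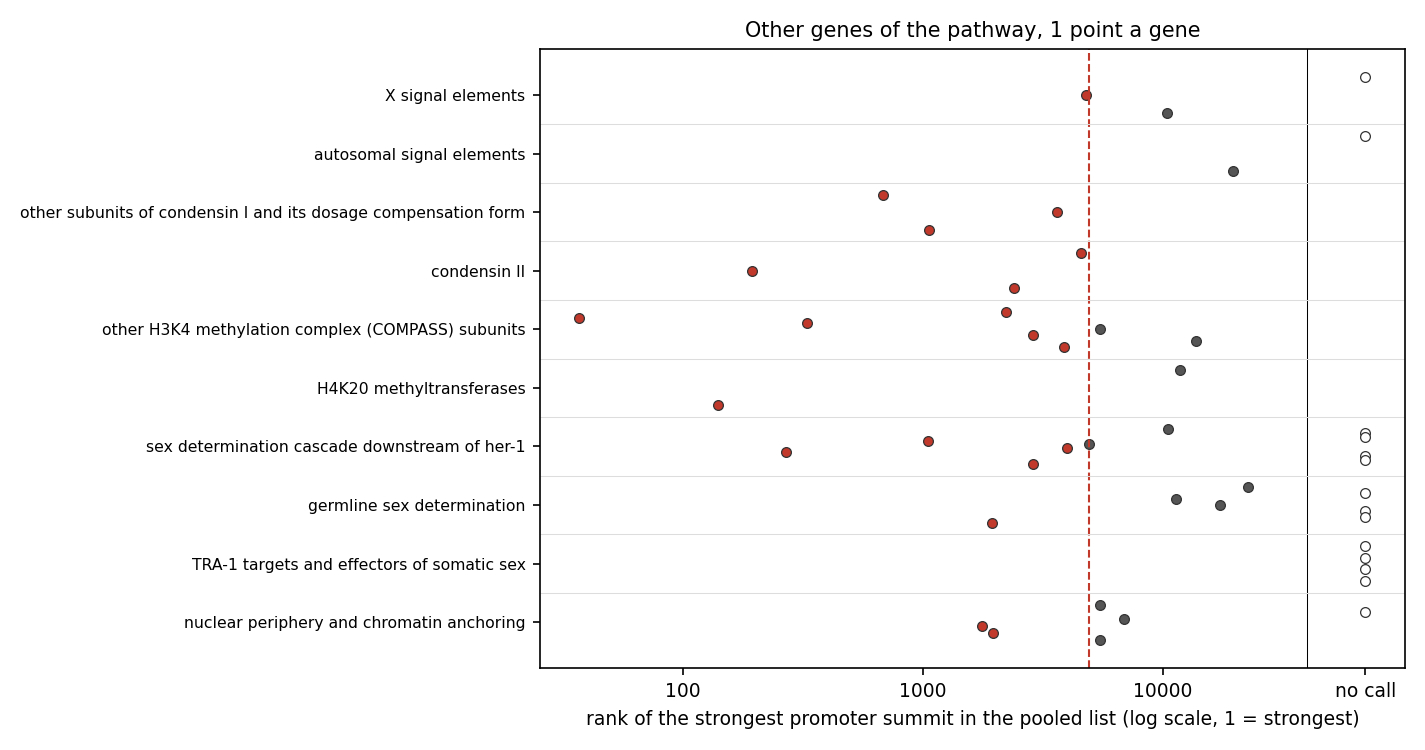
Rank in the pooled list (x axis, log scale, 1 at the left) of the strongest promoter summit of each gene (points) in the 10 lists (rows). Red points have an optimal promoter peak, grey points a pooled one ranked below the dashed line at 4904, and open points none. All 6 genes of the condensin rows are red, and no gene of the TRA-1 row has a pooled summit.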

How the data were processed

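The deposited files are peak lists on ce11: relaxed lists for each of 2 replicates and for both pooled, and an optimal list derived from these by an irreproducible discovery rate step, per the deposited file lists. The pooled list is labelled there as peaks and background, the input of that step. A control entered the authors' processing, per the same file lists. The sources used here name no aligner, peak caller, version or threshold. Column 7 was used as the authors' signal value per peak and column 9 as their −log10 q value, as deposited, the latter by its place in the peak format. Lists on ce10 were not used. No deposited list holds read counts, so the depth is unknown.

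Genes and 5' ends came from Ensembl release 115 for WBcel235 and sequence from the RefSeq assembly of that build, with no conversion of coordinates. The members and all gene lists were chosen with earlier results of these data known. Members are described by counts beside the share of all genes, with no test, since there is 1 group. Named genes are the members, the gene with the nearest 5' end at each optimal summit and at the strongest pooled one near a member, up to 3 genes with and 2 without an optimal promoter peak per pathway list, and 2 genes per member with an own optimal promoter peak that were closest in the sum of absolute log10 rank differences over the replicates. A peak was followed between lists by overlap, taking the nearest summit. The window rule was tried on simulated summits with code separate from that which made the calls, so the calls themselves were not tested by it. Python 3.11.15, numpy 2.4.6, pandas 2.3.3, scipy 1.17.1 and matplotlib 3.10.9 were used. Alternatives were each replicate alone, stricter peak lists, peak overlap, other distances and windows, and ranks by q.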

Additional observations from a re-analysis of the deposited data

How the results depend on the processing

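In brackets is the share of all protein-coding genes under the same rule. The count of 7 of 10 members with an optimal summit within 5 kb (43.6%) was 3 with 2 kb on each side (29.8%), 9 with the top peaks of replicate 1 alone (43.6%) and 10 with those of replicate 2 alone (44.7%). It was 7 with 10 kb (59.4%), with the higher-signal 50% of the list (29.4%), with peaks also top in both replicates (37.9%) and by any overlap of the peak (44.1%). The count of 3 with an optimal promoter peak (17.5%) was 5 from replicate 1 alone (17.4%) and 6 from replicate 2 alone (18.0%), because sdc-2 and sdc-3 have no pooled promoter peak and dpy-26 is high in replicate 2 alone. It was 2 with a window of 500 bp upstream (14.3%), where dpy-27 is lost, 3 with 2000 bp (22.4%), and 3 under the other 5 alternatives (11.4% to 18.4%). The count of 7 with a pooled promoter summit (42.4%) ran from 6 to 9, at 6 with the higher-signal 50% (30.3%) and with 500 bp (34.8%), and at 9 in each replicate alone (43.4% and 45.3%). The median rank of the strongest pooled summit within 5 kb, 838 over 9 members (3992 over 15810 genes), was 1059 over 10 members in replicate 1 (4343 over 16474 genes) and 817.5 over 10 members in replicate 2 (4627 over 17391 genes). It was 1 when ranked by q value, where 2772 pooled peaks share the ceiling. Each of these member medians includes the xol-1 peak for which that gene was chosen. The median distance of that summit from the member's 5' end, 2194 bp, ran from 2225 to 2805.5 bp in the replicates, and replicate 1 has no overlapping peak at dpy-26. With 100 bp on each side of the summit the share of member summits with CGCAGGG was 6.25%, as with 50 bp. No paired analysis was possible because there is 1 group. Depth is unknown, so the absence of a call does not show the absence of binding.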
